A study of Mus musculus with 14 samples.

Results

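The Zic genes encode zinc finger transcription factors and lie in the mouse genome as head-to-head pairs, Zic1 with Zic4 on chromosome 9 and Zic2 with Zic5 on chromosome 14. H3K27me3 at both pairs was described with 24 peaks of the 74458 in the deposited count table, taken because they lay within 10 kb of the RefSeq body of a member. Of these, 14 belonged to Zic1/Zic4 and 10 to Zic2/Zic5, and all 24 passed the filter on low counts. Both pairs carried strong H3K27me3 in every library. At Zic1/Zic4 the Hoxa levels overlapped those of both other deletions and the Wnt6 levels lay just below the Hmx1 levels, whereas at Zic2/Zic5 levels were highest in the Hoxa deletion and lowest in the Wnt6 deletion, with the widest separation at the Zic5 side of the pair.

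The libraries came from mouse embryonic stem cells (mESCs) of the G4 hybrid line, grown with LIF on CD1 feeder cells. Cas9 and a pair of guide RNAs had removed a Polycomb loop anchor, either the Hoxa cluster from Hoxa2 to Hoxa13 on chromosome 6 (3 libraries), the Wnt6 anchor on chromosome 1 (2 libraries) or the Hmx1 anchor on chromosome 5 (2 libraries). H3K27me3 was profiled by Cut&Tag, in which an antibody guides the Tn5 transposase to the mark so that adapters are inserted beside it, and 7 IgG libraries were not analysed here. No column of unedited cells was used, so each deletion was compared with the other 2 pooled, and these comparisons share libraries. The study describes a clone for each deletion, and a difference between deletions and a difference between clones cannot be told apart. The labels do not say whether replicates were separate cultures, so p-values measure the spread between these libraries, which may be technical. In such bulk libraries, a change in the share of cells with the mark and a change per cell cannot be told apart. Neither pair lies on a chromosome that carries a deletion.

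Zic proteins bind DNA through zinc fingers related to those of the Gli and Glis factors, and they act in patterning of the dorsal neural tube, in neural crest formation and in cerebellar development. Loss of human ZIC2 function is a known cause of holoprosencephaly. In mESCs many developmental regulators of this kind are held by Polycomb, whose complex PRC2 trimethylates lysine 27 of histone H3. In mammals PRC2 is found mainly at CpG-rich promoters that are not transcribed.

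Promoter sequences are shown because CpG density at the start site is the sequence feature tied to PRC2 recruitment. RefSeq windows of 300 bases (250 before and 50 after the start, build GRCm38.p6) were listed for 3 of the 4 members, with CpG dinucleotides in capitals. Zic1 was read on the minus strand at chr9:91365719-91366018, Zic4 on the plus strand at chr9:91368722-91369021 and Zic5 on the minus strand at chr14:122465609-122465908.
Zic1: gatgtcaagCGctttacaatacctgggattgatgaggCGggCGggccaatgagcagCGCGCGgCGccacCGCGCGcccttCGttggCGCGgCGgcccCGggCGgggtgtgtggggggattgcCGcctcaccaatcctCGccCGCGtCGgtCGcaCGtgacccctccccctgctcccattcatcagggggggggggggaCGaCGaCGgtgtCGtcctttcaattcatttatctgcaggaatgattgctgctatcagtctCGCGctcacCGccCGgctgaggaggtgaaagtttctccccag
Zic4: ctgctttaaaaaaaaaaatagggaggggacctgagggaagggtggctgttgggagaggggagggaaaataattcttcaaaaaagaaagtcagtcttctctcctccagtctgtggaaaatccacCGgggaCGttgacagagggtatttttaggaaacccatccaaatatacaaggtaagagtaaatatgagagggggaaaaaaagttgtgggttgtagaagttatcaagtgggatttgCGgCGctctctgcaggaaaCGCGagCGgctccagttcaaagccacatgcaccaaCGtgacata
Zic5: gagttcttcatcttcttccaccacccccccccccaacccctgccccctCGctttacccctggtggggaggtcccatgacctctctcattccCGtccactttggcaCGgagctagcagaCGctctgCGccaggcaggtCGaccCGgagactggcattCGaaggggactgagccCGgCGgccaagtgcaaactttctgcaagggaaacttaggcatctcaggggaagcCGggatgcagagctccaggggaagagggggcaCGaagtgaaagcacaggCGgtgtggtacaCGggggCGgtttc

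The 3 promoters differed in CpG content. That of Zic1 held 31 CpG, at least as many as 90.5% of the 32851 mouse promoters of the same length, at 65.3% G+C. The Zic5 promoter held 15 CpG (67.0th percentile, 62.7% G+C) and the Zic4 window 8 CpG (54.2th percentile, 46.0% G+C), against a median of 7. The Zic4 start used here, at 91368972, lies inside the annotated span of the gene, so that its window describes 1 annotated start. The CCAAT box, searched as CCAAT on both strands, occurred 2 times in the Zic1 window and not in the others, and 37.4% of all promoters held it. The GC box GGGCGG, also read on both strands and itself containing a CpG, occurred 3 times at Zic1 and 1 time at Zic5, and was present in 35.7% of all promoters. No TATAAA was found in the 3 windows, and 13.6% of all promoters held it. An H3K27me3 peak overlapped the Zic5 window, while the nearest peak lay 270 bp from the Zic1 window and 171 bp from the Zic4 window. Of all promoters 43.9% overlapped a peak, and of the 8701 with at least 20 CpG 89.1% did.

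The peaks were spread along both loci. Zic1 spans chr9:91358058-91365768 and Zic4 chr9:91365631-91389351, so that the annotated spans overlap and no peak lay between them. Here 2 peaks lay beside Zic1 and overlapped the lncRNA genes Gm40546, A730094K22Rik or Gm40545, 2 lay over Zic1, 7 over Zic4 and 3 beside Zic4. Zic5 spans chr14:122459160-122465658 and Zic2 chr14:122475384-122480328. At this pair 2 peaks lay beside Zic5, 1 over Zic5, 2 between the genes, 2 over Zic2 and 3 beside Zic2, where the last overlapped Pcca, which encodes a subunit of the mitochondrial propionyl-CoA carboxylase. The peaks covered 13954 bp at Zic1/Zic4 and 13968 bp at Zic2/Zic5. Whether a peak is exonic or intronic was not determined here.

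Library totals over all peaks ranged from 6016500 to 36563541 counts. In the smallest library the 24 peaks held between 31 and 679 counts and in the largest between 213 and 3295, so that replicate 1 of the Hmx1 deletion gave the least precise values. Counts below are given as CPM (counts scaled to a common library size) using each library total times its TMM factor, and levels of different regions are compared as CPM per kb of peak.

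H3K27me3 was high at all 4 genes. The mean level over the 7 libraries was 42.3 CPM per kb for the Zic1 window (the peaks within 10 kb of the gene body), 42.8 for Zic4, 43.7 for Zic2 and 35.2 for Zic5. These levels lay at the 92.1th, 92.4th, 92.8th and 88.6th percentile of 30955 gene windows, whose median was 9.36 CPM per kb. Since head-to-head genes share peaks (4 in each pair), the values of the genes of a pair are not independent.

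Within each pair the level changed severalfold from peak to peak. The strongest at Zic1/Zic4 was a peak over the distal part of Zic4 at chr9:91381420-91382049, with 91.9 CPM per kb (99.4th percentile of all peaks), followed by chr9:91383767-91384543 with 72.7 CPM per kb. Nearest the start of Zic1, the peak at chr9:91364109-91365449 had 66.7 CPM per kb, and nearest that of Zic4 the peak at chr9:91369192-91371240 had 30.2. The peaks beside Zic4 were the weakest, between 14.2 and 17.8 CPM per kb, still above the median of 7.74 over all peaks.

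At Zic2/Zic5 the signal was strongest on the Zic2 side. The peak beside Zic2 at chr14:122481250-122481529 had 88.7 CPM per kb and that over Zic2 at chr14:122478451-122479248 had 84.8. The peak over the end of Zic2 that faces Zic5, at chr14:122474790-122476765, had 54.0 CPM per kb. By contrast the wide peak at chr14:122462584-122465850, which reaches over the start of Zic5, had 24.1 CPM per kb, and the neighbouring peak at chr14:122468437-122469682, between the genes, had 24.0.

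**Figure D1:**
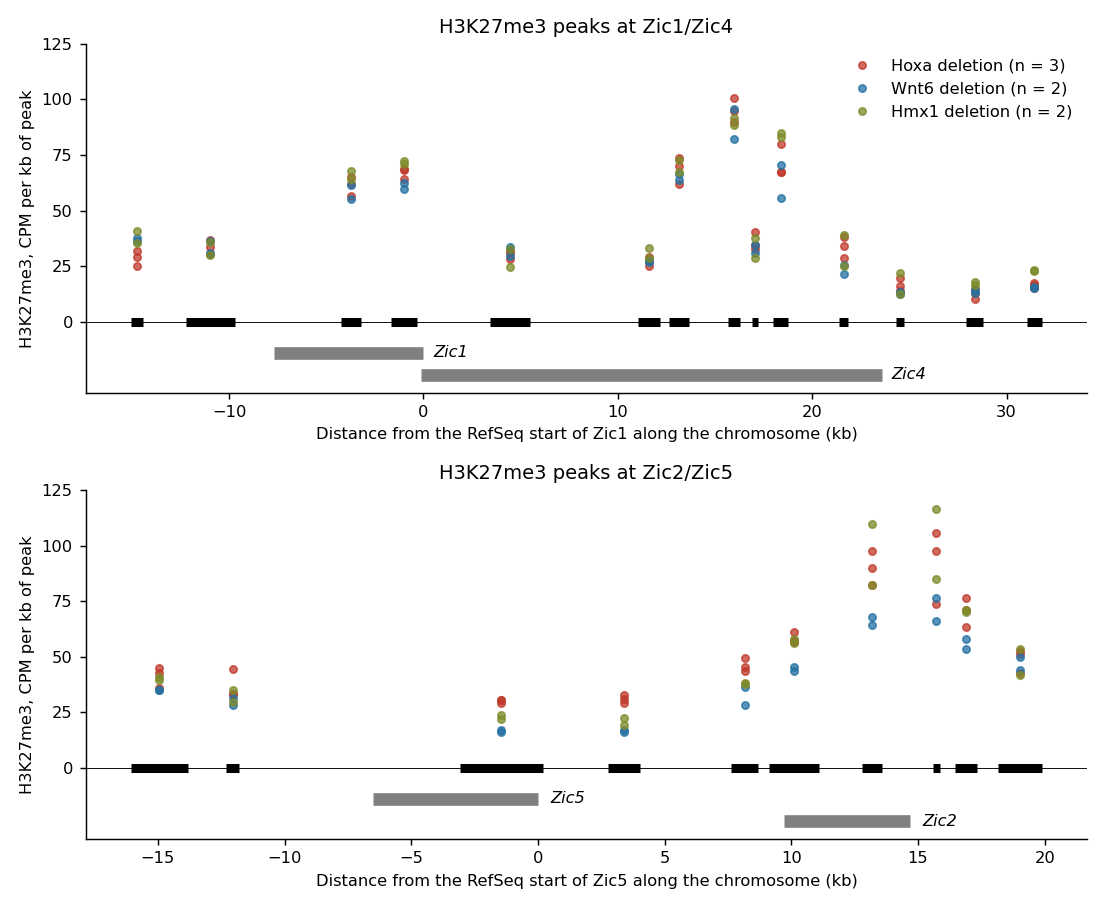
H3K27me3 level in CPM per kb of peak (vertical axis) of each of the 24 peaks against the distance in kb from the RefSeq start of Zic1 (top) or Zic5 (bottom), with 1 point per library coloured by deletion. Black bars mark the extent of the peaks and grey bars the gene bodies. The points of the 3 deletions mix at most Zic1/Zic4 peaks, while at the wide peak over Zic5 and the peak next to it the Hoxa points lie above the Hmx1 points and these above the Wnt6 points.

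Per gene, the Zic1 window summed to 337, 316 and 300.2 CPM in replicates 1 to 3 of the Hoxa deletion, 331 and 297 CPM in the Wnt6 deletion and 313 and 346 CPM in the Hmx1 deletion. The Zic4 window held 601, 559 and 555 CPM, 566 and 517 CPM, and 571 and 624 CPM in the same order. At Zic1 all 3 deletions overlapped, and at Zic4 the Hoxa libraries overlapped both others while the Wnt6 libraries lay below the Hmx1 libraries by a narrow gap. Zic1 acts in cerebellar development and neural crest induction, and Zic4 is deleted together with it in some cases of Dandy-Walker malformation in humans.

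In the Zic2 window, levels were 570.0, 537 and 525 CPM in the Hoxa deletion, 415 and 383 CPM in the Wnt6 deletion and 505 and 499 CPM in the Hmx1 deletion. The Zic5 window held 430.3, 411 and 392.1 CPM, 296 and 282 CPM, and 359.6 and 359.8 CPM. At both genes no library of one deletion reached the range of another, in the order Hoxa, Hmx1, Wnt6. How many of all gene windows separate in this way was not counted, and the windows of these genes share peaks. The means were 544 ± 23.3 (SD, n = 3), 502 ± 4.01 (SD, n = 2) and 399 ± 22.8 CPM (SD, n = 2) for Zic2, and 411 ± 19.1, 360 ± 0.186 and 289 ± 9.87 CPM for Zic5. Zic2 is expressed in pluripotent cells as they leave the naive state and later in the dorsal neural tube, and Zic5 is best known from neural crest.

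**Figure D2:**
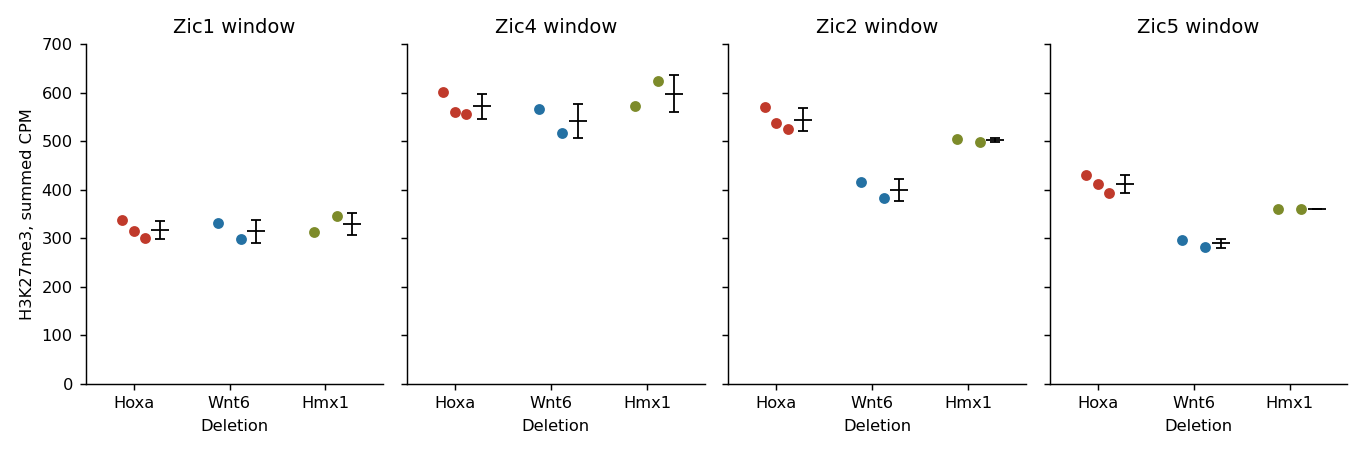
Summed H3K27me3 CPM of the peaks within 10 kb of each member gene (vertical axis), with 1 point per library and the mean ± SD beside it in black, for the Hoxa (n = 3), Wnt6 (n = 2) and Hmx1 (n = 2) deletions. The 3 groups overlap at Zic1, the Hoxa points overlap both other groups at Zic4, and all groups are separate at Zic2 and Zic5, where the Wnt6 points are lowest.

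Of the 4 genes, the windows of Zic2 and Zic5 rose in the Hoxa deletion at an adjusted p under 0.05 without a minimum on the fold change. Of all genes tested 12.2% rose and 18.3% passed in either direction. Zic2 changed by 0.27 on the log2 scale (standard error, SE, 0.0722, edgeR adjusted p = 0.00496) and Zic5 by 0.34 (SE 0.0733, edgeR adjusted p = 5.02e-04). Zic1 and Zic4 had log2 fold changes of -0.02 (SE 0.0677, edgeR adjusted p = 0.896) and 0.0048 (SE 0.0625, edgeR adjusted p = 0.976). Whether the pairs differed in their change was not tested. No window changed by more than 1 on the log2 scale in the Hoxa deletion, the minimum that the study also set, which 0.775% of genes passed at the same adjusted p. The Zic2 result depended on the window, since with peaks within 5 kb the value was 0.17 (edgeR adjusted p = 0.129). It also depended on the comparison, since against the Hmx1 deletion alone the value was 0.12 (edgeR adjusted p = 0.258).

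With the Wnt6 deletion set against the others, Zic2 and Zic5 had log2 fold changes of -0.40 (SE 0.0677) and -0.43 (SE 0.0826), and 0 of the 4 genes passed (edgeR adjusted p = 0.101 and 0.254), against 0.0452% of all genes, while at an unadjusted p under 0.05 both did, as did 5.76% of all genes. DESeq2 gave adjusted p = 0.00446 and 0.0124 for these genes. The pooled comparison counts the difference between the Hoxa and Hmx1 deletions as spread. In a fit with a term for each deletion, the Hoxa deletion exceeded the Wnt6 deletion by 0.45 at Zic2 (edgeR adjusted p = 5.18e-07) and by 0.51 at Zic5 (edgeR adjusted p = 3.17e-08), where 14.1% of genes differed. The Wnt6 deletion lay below the Hmx1 deletion by -0.33 at Zic2 (edgeR adjusted p = 0.00769) and by -0.32 at Zic5 (edgeR adjusted p = 0.0149), where 0.775% of genes differed. Hoxa and Hmx1 differed at Zic5 (0.19, edgeR adjusted p = 0.0362), while at Zic2 the difference of 0.12 (edgeR adjusted p = 0.258) did not pass, and 18.3% of genes did. Zic1 and Zic4 did not pass in any of these, with 0.02 and 0.08 between Hoxa and Wnt6 (edgeR adjusted p = 0.920 and 0.535). In the Hmx1 deletion against the others, values lay between -0.01 and 0.10 for the 4 genes, and 0 passed in edgeR at an adjusted p under 0.05 (0.0517% of all genes) or an unadjusted one (13.3%).

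Peak by peak, no member passed both thresholds of the study (an absolute log2 fold change over 1 and an adjusted p under 0.05) in edgeR in any of the 3 comparisons, which 1.55% of all tested peaks did for the Hoxa deletion, 0.0497% for Wnt6 and 0.0282% for Hmx1. Without the fold change minimum 4 of the 24 passed for the Hoxa deletion, against 8.52% of all peaks. Of these 3 rose, all at Zic2/Zic5 (4.32% of all peaks rose), and 1 fell, at Zic1/Zic4 (4.20% fell). At an unadjusted p under 0.05 the counts were 5 of 24 for Hoxa (20.8% of all peaks), 10 for Wnt6 (5.20%) and 3 for Hmx1 (8.96%). The median log2 fold change over the 24 peaks was 0.07 for the Hoxa, -0.23 for the Wnt6 and 0.12 for the Hmx1 deletion, and over all peaks tested -0.01, -0.0025 and -0.01.

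The peak over Zic5, which reaches its start and overlaps the promoter printed above, held 95.8, 99.1 and 99.1 CPM in the Hoxa deletion, 54.9 and 52.7 CPM in the Wnt6 deletion and 71.8 and 77.0 CPM in the Hmx1 deletion. The groups stood apart, with gaps wider than the spread within any of them. In the Hoxa deletion it rose by 0.62 on the log2 scale (SE 0.0994, edgeR adjusted p = 1.42e-05), a change that passed under each of the 16 other settings run for this comparison, left-out libraries included. For Wnt6 it changed by -0.72 (SE 0.130, edgeR adjusted p = 0.0436), the only one of the 24 peaks to pass there, against 0.0564% of all peaks. This call was lost without any 1 of the 3 Hoxa libraries or of the 2 Wnt6 libraries, with edgeR adjusted p of 0.121 or more, while its log2 fold change stayed between -0.75 and -0.68. It passed without either Hmx1 library. Between single deletions, the peak was higher in Hoxa than in Wnt6 by 0.87 (edgeR adjusted p = 8.64e-10), higher in Hoxa than in Hmx1 by 0.39 (edgeR adjusted p = 0.00521) and lower in Wnt6 than in Hmx1 by -0.48 (edgeR adjusted p = 0.0299).

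The next peak, between Zic5 and Zic2 on the Zic5 side, overlapped no other annotated gene. It held 38.8, 40.9 and 36.5 CPM in the Hoxa deletion, 19.96 and 21.1 CPM in the Wnt6 deletion and 24.0 and 28.1 CPM in the Hmx1 deletion. Again the 3 groups were separate and in the same order. The log2 fold change was 0.73 in the Hoxa deletion (SE 0.112, edgeR adjusted p = 5.79e-06), which passed under the same 16 settings, and -0.72 for Wnt6 (SE 0.183, edgeR adjusted p = 0.653). Hoxa exceeded Wnt6 by 0.91 (edgeR adjusted p = 1.45e-07) and Hmx1 by 0.55 (edgeR adjusted p = 0.00158).

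A further peak between the genes, at chr14:122473299-122474342 over the lncRNA gene 2610035F20Rik, was named after its values were seen. It held 51.5, 47.3 and 45.6 CPM in the Hoxa deletion, 37.9 and 29.5 CPM in the Wnt6 deletion and 39.4 and 39.7 CPM in the Hmx1 deletion. All Hoxa libraries lay above all others, and the Wnt6 libraries below all others. It rose by 0.40 in the Hoxa deletion (SE 0.105, edgeR adjusted p = 0.00862), a call that was lost without Hoxa replicate 1 or without Wnt6 replicate 2 (edgeR adjusted p up to 0.0782). These 3 peaks were the members in which the deletions followed the order Hoxa, Hmx1, Wnt6 with no overlap, a pattern found in 1.02% of all peaks.

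**Figure D3:**
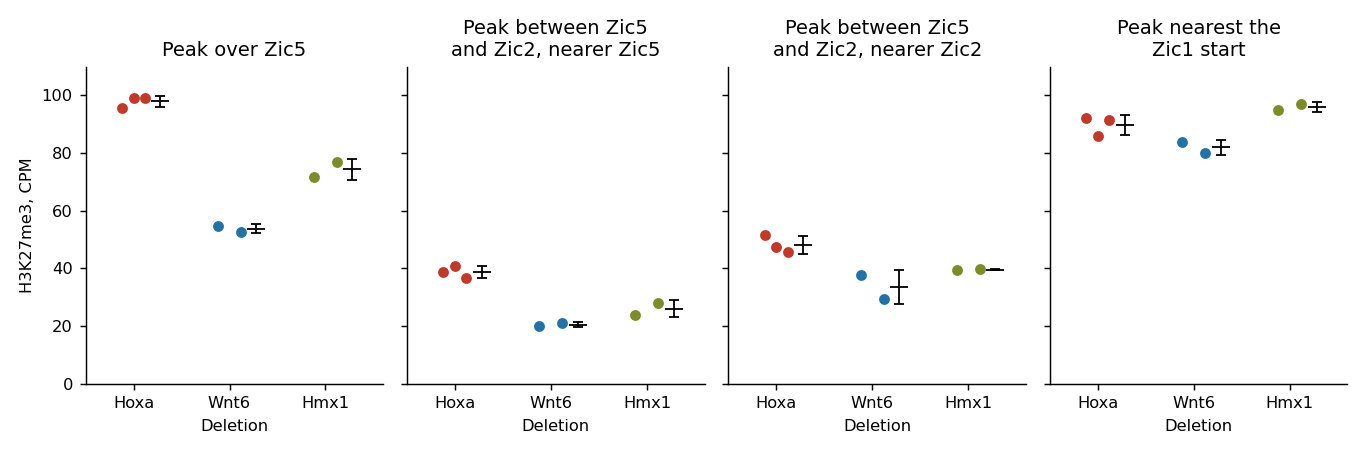
H3K27me3 CPM per library (vertical axis, 1 point per library, mean ± SD in black) at the peak over Zic5, at both peaks between Zic5 and Zic2 and, for comparison, at the peak nearest the Zic1 start, for the Hoxa (n = 3), Wnt6 (n = 2) and Hmx1 (n = 2) deletions. At the first peak the Hoxa points lie near 99.1, the Wnt6 points at 52.7 and 54.9 and the Hmx1 points at 71.8 and 77.0.

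Over Zic2 itself the Hoxa and Hmx1 deletions came together and the Wnt6 deletion stood apart. At its end facing Zic5 the peak held 121, 112 and 113 CPM in the Hoxa deletion, 115 and 111 CPM in the Hmx1 deletion and 89.3 and 86.1 CPM in the Wnt6 deletion. The Hoxa and Hmx1 values overlapped and the Wnt6 values were lower than all of them. Hoxa exceeded Wnt6 by 0.39 (edgeR adjusted p = 0.00348) and Hmx1 by 0.03 (edgeR adjusted p = 0.918), and the change of the Wnt6 deletion against the others was -0.38 (SE 0.0873, edgeR adjusted p = 0.396). The second peak over Zic2, near its far end, held 77.7, 65.7 and 71.5 CPM, 87.6 and 65.4 CPM, and 54.0 and 51.3 CPM in the same order. Here Wnt6 lay below Hoxa (0.44, edgeR adjusted p = 0.00490) and below Hmx1 (-0.52, edgeR adjusted p = 0.0373).

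Toward Pcca the differences between Hoxa and Wnt6 faded, from 0.37 and 0.33 at the peaks beside Zic2 to 0.06 at the last one. At the peak with the highest level of the pair, beside Zic2, values were 27.3, 20.5 and 29.4 CPM in the Hoxa, 21.3 and 18.5 CPM in the Wnt6 and 32.5 and 23.7 CPM in the Hmx1 deletion, and the groups overlapped. In the last peak of the locus, over Pcca, the log2 fold changes were 0.04, -0.04 and -0.01 for Hoxa, Wnt6 and Hmx1. The nearest peak outside the 10 kb limit, at chr14:122490365-122491385 with 108 CPM per kb, had 0.0020, -0.19 and 0.18. The 6 Zic2/Zic5 peaks that differed between Hoxa and Wnt6 lay from the Zic5 body to the region beside Zic2. Within this stretch the peak with the highest level did not pass (0.37, edgeR adjusted p = 0.122), nor did the peaks at both outer edges of the locus.

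Between the Hoxa and Wnt6 deletions alone, 7 of the 24 peaks passed, all higher in Hoxa, against 5.20% of all peaks in either direction and 2.39% higher in Hoxa. Of these 6 were at Zic2/Zic5. The other, over Zic4 at chr9:91387150-91387607, was named after its values were seen and differed by 0.54 (edgeR adjusted p = 0.0364). Hoxa against Hmx1 gave 4 peaks (6.90% of all peaks), the peaks over Zic5 and next to it higher and the first and last Zic1/Zic4 peaks lower. Wnt6 against Hmx1 gave 2 (0.132%), both lower in Wnt6, over Zic5 and over Zic2. Without a test, every Wnt6 library lay below every other library at 8 of the 24 peaks, against 4.60% of all peaks, and 7 of the 8 were at Zic2/Zic5. Every Hoxa library lay above every other at 3, against 9.09% of all peaks.

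**Figure D4:**
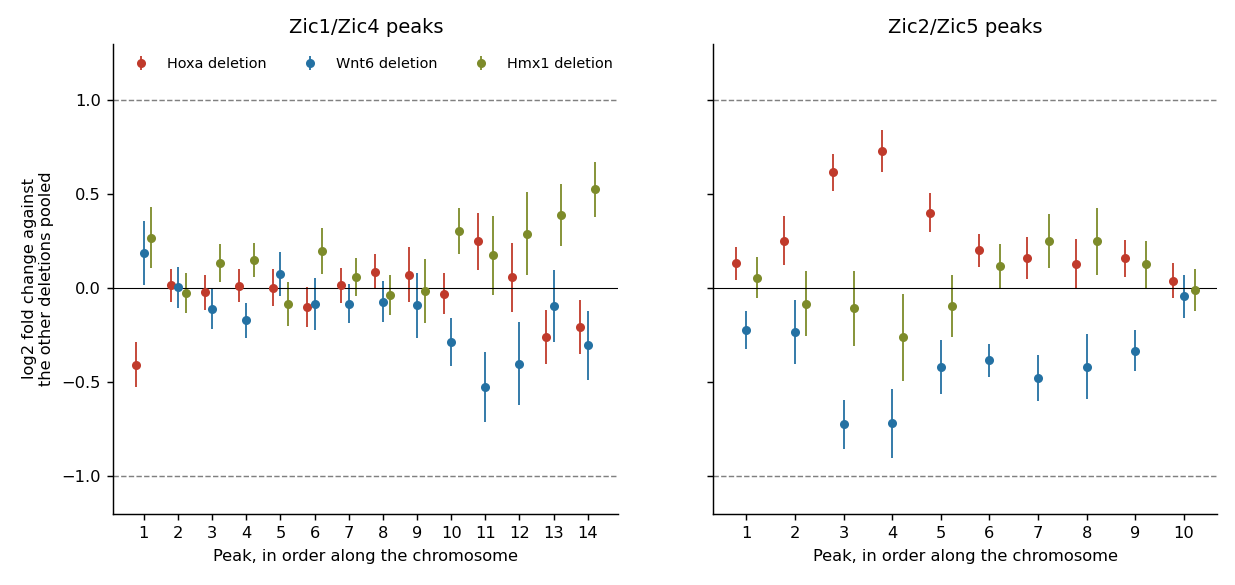
log2 fold change of each peak in a deletion against the other deletions pooled (vertical axis, point ± SE), in order along the chromosome, for Zic1/Zic4 (left) and Zic2/Zic5 (right), with dashed lines at 1 and -1. No point reaches a dashed line. At Zic2/Zic5 the Hoxa values peak at 0.62 and 0.73 at peaks 3 and 4, where the Wnt6 values are -0.72 at both.

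At Zic1/Zic4 the peak nearest the Zic1 start held 92.2, 85.9 and 91.3 CPM in the Hoxa deletion, 83.9 and 80.2 CPM in the Wnt6 deletion and 94.8 and 97.2 CPM in the Hmx1 deletion. The Wnt6 values were the lowest by a small margin, and log2 fold changes were 0.01, -0.17 and 0.15 (edgeR adjusted p = 0.958, 0.920 and 0.657). At the peak nearest the Zic4 start, values of 65.2, 63.1 and 57.8 CPM, 68.3 and 60.3 CPM, and 50.4 and 67.3 CPM overlapped, with the Hmx1 replicates farthest apart. The strongest peak, over the distal part of Zic4, held 63.2, 56.5 and 59.7 CPM in Hoxa, 60.1 and 51.6 CPM in Wnt6 and 55.6 and 57.7 CPM in Hmx1. Its log2 fold changes lay between -0.07 and 0.09.

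Differences at Zic1/Zic4 included both of its outer edges. The peak over the lncRNA genes beside Zic1, at chr9:91350723-91351332, was named after its values were seen. It held 19.3, 17.6 and 15.3 CPM in the Hoxa deletion, 22.8 and 22.1 CPM in the Wnt6 deletion and 21.6 and 24.8 CPM in the Hmx1 deletion. Every Hoxa value was below every other, and the peak fell by 0.41 on the log2 scale (SE 0.119, edgeR adjusted p = 0.0220). This result was lost without Hoxa replicate 2, Hoxa replicate 3 or Hmx1 replicate 2 (edgeR adjusted p up to 0.148). It was also lost on downsampling to the smallest library and with a replicate block (edgeR adjusted p up to 0.174). At the opposite edge, at chr9:91396797-91397584 beside Zic4, values were 12.9, 13.6 and 11.9 CPM, 12.2 and 11.8 CPM, and 17.7 and 18.1 CPM. The Hmx1 libraries were above all others, with a log2 fold change of 0.53 (SE 0.145). This had the smallest p of the 24 peaks for the Hmx1 deletion, 0.00180 in edgeR over all peaks, and did not pass after adjustment (adjusted p = 0.321). No member passed for the Hmx1 deletion, against 0.0309% of all peaks. How many of all peaks have every Hoxa library below, or every Hmx1 library above, all others was not counted.

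Levels around the loci were compared next. Over the 10 Zic2/Zic5 peaks the median log2 fold change was 0.18 in the Hoxa, -0.40 in the Wnt6 and 0.02 in the Hmx1 deletion. The 51 other peaks within 1 Mb had medians of 0.14, -0.12 and -0.05, and chromosome 14 as a whole 0.0038, -0.02 and -0.01. For Zic1/Zic4 the medians were 0.01, -0.09 and 0.16, against -0.18, 0.15 and 0.10 over the 12 other peaks within 1 Mb and 0.04, -0.03 and -0.05 on chromosome 9.

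Per kb of peak, the loci had like mean levels, 42.4 ± 2.54 CPM per kb for Zic1/Zic4 and 42.6 ± 5.50 for Zic2/Zic5 (SD, n = 7). The log2 ratio of Zic1/Zic4 over Zic2/Zic5 was -0.15 ± 0.0227 (SD, n = 3) in the Hoxa libraries. It was 0.20 ± 0.0202 in the Wnt6 and 0.03 ± 0.112 in the Hmx1 libraries (SD, n = 2 each). Its ranges did not overlap, from -0.17 to -0.13, from 0.18 to 0.21 and from -0.05 to 0.11, and no test was made. Which locus is higher depends on the length used, since per kb of window the mean ratio was -0.32 and with peaks over the gene bodies alone 0.33.

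The Gli and Glis genes, which encode related zinc finger factors, had a lower median level of the mark than the Zic genes. Over Gli1, Gli2, Gli3, Glis1, Glis2 and Glis3 it was 20.5 CPM per kb, from 5.98 at Glis2 to 37.8 at Gli3, and Gli3 alone of the 6 lay above Zic5. Gli2, a transcriptional effector of Hedgehog signalling, was the only one of the 6 to pass, with 0.68 in the Hoxa deletion (SE 0.0936, edgeR adjusted p = 3.48e-07). Of all genes tested 18.3% passed there in either direction.

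Genes that act beside Zic factors in the dorsal neural tube and neural crest had a median of 52.1 CPM per kb, from 20.5 at Bmp4 to 73.8 at Gdf7. Of these 15 genes 2 rose in the Hoxa deletion and none fell (12.2% of all genes tested rose). Foxd3, a neural crest factor also needed in early pluripotent cells, had 0.32 (SE 0.0737, edgeR adjusted p = 0.00111), and Bmp4, a ligand that patterns the dorsal neural tube, had 0.65 (SE 0.0667, edgeR adjusted p = 7.55e-10). Between single deletions, Foxd3 had values near those of Zic5. It was higher in Hoxa than in Wnt6 by 0.48 (edgeR adjusted p = 2.26e-07). In Wnt6 it lay below Hmx1 by -0.30 (edgeR adjusted p = 0.0327), where 0.775% of genes differed. Its 0.18 between Hoxa and Hmx1 did not pass (edgeR adjusted p = 0.0604). Bmp4 had 0.0065 between Wnt6 and Hmx1 (edgeR adjusted p = 0.993). The other 13, among them Pax3, Pax7, Msx1, Sox10 and Wnt1, did not pass. In the Wnt6 and Hmx1 deletions 0 of 15 did in edgeR, against 0.0452% and 0.0517% of all genes. The Dlx genes, also arranged in pairs, had higher levels than the Zic genes, from 46.2 to 72.2 CPM per kb with a median of 62.8. Of these 0 of 6 passed in any deletion in edgeR, with log2 fold changes from -0.09 to 0.10. For the Hoxa deletion 18.3% of all genes passed in either direction.

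**Figure D5:**
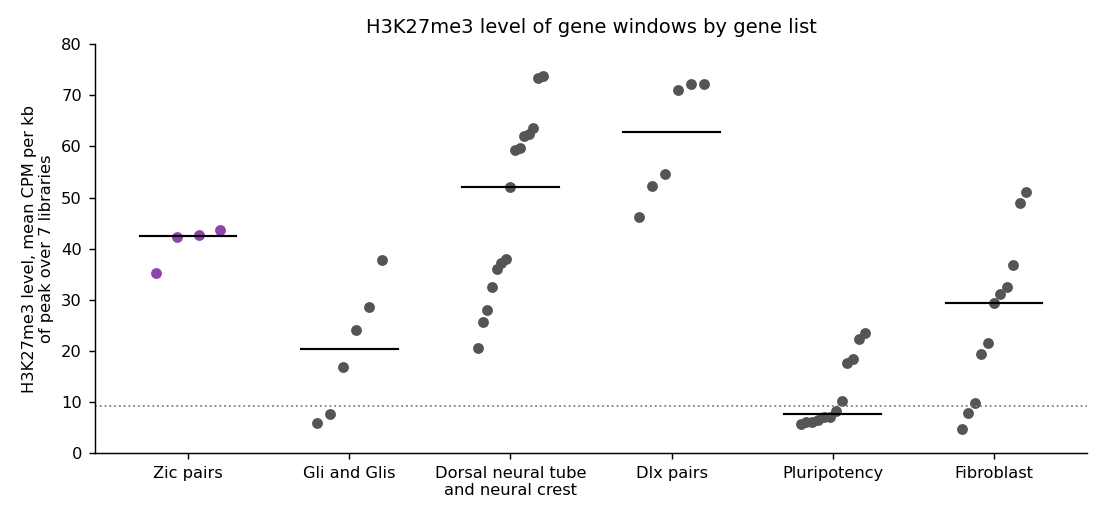
Mean H3K27me3 level over the 7 libraries in CPM per kb of peak (vertical axis) of each gene window with a peak, by gene list, with 1 point per gene, the median of each list as a line and the median of all gene windows as a dotted line. The 4 Zic genes lie between 35.2 and 43.7, below all Dlx genes and above all pluripotency genes.

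Pluripotency genes were used to check the cell type. Of 15, 12 had a peak, with a median level of 7.72 CPM per kb, below the median of all genes (9.36), and no peak was near Tdgf1, Dppa5a or Lin28a. The list was not uniform, since Prdm14 (23.6 CPM per kb), Tbx3 (22.3), Sox2 (18.5), Esrrb (17.7) and Klf4 (10.2) lay above that median. Summed over the list, the signal was 799 to 849 CPM in the Hoxa, 605 to 637 CPM in the Wnt6 and 664 to 668 CPM in the Hmx1 deletion, the same order as at Zic2 and Zic5. Gene by gene this order did not hold throughout. The median log2 fold change over the list was 0.15 for Hoxa, -0.11 for Wnt6 and -0.19 for Hmx1. Klf4, Sall4, Nanog, Pou5f1 and Utf1 had lower mean CPM in Hmx1 than in Wnt6. Klf2 and Zfp42 had their lowest mean CPM in Hoxa and their highest in Hmx1. Only Sox2, Esrrb, Tfcp2l1, Prdm14 and Tbx3 followed the order of the sums. In the Hoxa deletion 5 genes rose (Klf4, Tfcp2l1, Sall4, Prdm14 and Tbx3) and 1 fell (Klf2), while of all genes tested 12.2% rose and 6.13% fell. For Tbx3, a factor of naive pluripotency, the value was 0.72 (SE 0.0669, edgeR adjusted p = 6.41e-11). Its mean CPM, part of the sums above, was 253 in Hoxa, 145 in Wnt6 and 162 in Hmx1. The part of this list's shift in the Zic2/Zic5 result was not tested. Fibroblast genes, which mark feeder cells, summed to 1374 to 1482 CPM in the Hoxa, 1319 to 1449 CPM in the Wnt6 and 1416 to 1465 CPM in the Hmx1 deletion. These ranges overlapped. Of the 11 of 13 genes with a peak 1 rose in the Hoxa deletion (Vim, 0.34, edgeR adjusted p = 2.08e-04), against 12.2% of all genes tested.

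The gene windows most like each pair were those with the smallest root mean square difference in log2 CPM per kb over the 7 libraries, among 13755 genes with at least 3 peaks. For Zic1/Zic4 they were Prdm6 (0.0242), Dok6 (0.0307) and Meis1 (0.0325), and for Zic2/Zic5 Gm22442 (0.0616), Cdx1 (0.0673) and Rnf227 (0.0791). The larger values for Zic2/Zic5 mean that no candidate came as close to its levels as Prdm6 did to those of Zic1/Zic4. The measure was not centred, so it mixes the level of a gene with its course over the deletions. A gene with a like course at another level would be passed over.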

How the data were processed

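H3K27me3 Cut&Tag counts of 7 libraries were analysed (3 Hoxa, 2 Wnt6 and 2 Hmx1 deletion). The authors deposited raw counts over 74458 peaks shared by all libraries, without normalization. The submitters' processing notes name the build mm10 and the tools Bowtie2, Trimmomatic, SAMtools, Picard, MACS2 and deepTools, with no roles or versions. Whether peaks were called on pooled libraries, and whether reads or fragments were counted, is not given in the sources used here. Peaks strong in the libraries used for calling are favoured in such a list. Peak positions are as deposited, with the convention of the start not stated, and genes are RefSeq of GRCm38.p6, the same build.

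Groups came from the titles. The members and the gene lists were chosen with earlier results of these data known. A gene of the lists is not reported here. In R 4.3.3 with edgeR 4.0.16, peaks were filtered by filterByExpr (74441 of 74458 kept), scaled by TMM and fitted with glmQLFit and glmQLFTest, each deletion against the other 2 pooled, with Benjamini-Hochberg adjustment over all peaks. Counts of the peaks within 10 kb of a gene body were summed and fitted likewise over 30955 genes. A fit with 3 genotype terms gave the comparisons of single deletions. Standard errors were derived from the F statistic. A call required an absolute log2 fold change over 1 and an adjusted p under 0.05, and rose or fell is used at an adjusted p under 0.05 alone. Named peaks are, per pair, the 2 with the highest CPM per kb, those nearest the listed start of each member (both ends for Zic2, with no listed start) and, per deletion, that with the smallest p. The procedure was tested on simulated data with changes larger than any at the Zic peaks, so that test does not cover changes of the size reported here. Alternatives were DESeq2 1.42.0, RLE factors, library totals alone, abundance-dependent offsets, 3 genotype terms, a mean count filter at 20 or none, single deletions as the comparison, a replicate block, downsampling, left-out libraries, no fold change minimum and windows of 0, 5 and 25 kb. Figures used Python 3.11.15 and matplotlib 3.10.9. Cut&Tag counts come from PCR-amplified libraries, so that counting error is not that of independent molecules.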

Additional observations from a re-analysis of the deposited data

How the results depend on the processing

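A log2 fold change within its standard error of 0 was taken to have no direction. Without the fold change minimum the number of Zic peaks called was 4 for the Hoxa deletion and 1 for the Wnt6 deletion in place of 0, and it stayed at 0 for Hmx1. The count at an adjusted p under 0.05 for the Hoxa deletion was 7 against the Wnt6 deletion alone and 1 with peaks over the gene bodies alone, which leaves fewer peaks. For the Wnt6 deletion it was 2 in DESeq2, 0 with library totals alone and with abundance-dependent offsets, 4 with 3 genotype terms, 7 against Hoxa alone, 2 against Hmx1 alone and 0 to 1 with each library left out. For the Hmx1 deletion it was 1 with 3 genotype terms, 4 against Hoxa alone and 2 against Wnt6 alone. The median over the Zic peaks was 0.17 for Hoxa against Wnt6 alone, and -0.14 for Wnt6 with windows of 0 kb and 25 kb. For Hmx1 it was 0.0852 with abundance-dependent offsets, 0.0124 against Hoxa alone, 0.24 against Wnt6 alone and 0.0614 to 0.1744 with each library left out. The log2 ratio of the Zic1/Zic4 over the Zic2/Zic5 level was -0.32 per kb of window, 0.33 with windows of 0 kb and -0.275 with 25 kb. The peak between Zic5 and Zic2 nearest Zic5 turned from -0.26 to 0.36 (edgeR adjusted p = 0.707) for Hmx1 when set against Wnt6 alone. The sign follows from the comparison, since Hmx1 (mean 26.0 CPM) lay between Hoxa (38.8 CPM) and Wnt6 (20.5 CPM) at this peak. The cause of that order was not tested.

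The Zic5 window stayed at an adjusted p under 0.05 for the Hoxa deletion in all 21 alternatives run (0.19 to 0.65) and the Zic2 window in 18 of 21 (0.12 to 0.45), lost with windows of 0 kb (0.18, edgeR adjusted p = 0.189) and 5 kb and against Hmx1 alone. For the Wnt6 deletion the Zic2 window passed in 5 of 21 and the Zic5 window in 4 of 21.

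Replicate numbers are shared between groups, but same-numbered libraries did not deviate together (r from -0.04 to 0.08 over 6 pairs, others from -0.11 to 0.11), so the numbers were not taken as a pairing. Deviations from the mean of a group of 2 libraries mirror each other. The 6 values are therefore not independent, and those of the other pairs partly follow from them. With a replicate block the Wnt6 count at an adjusted p under 0.05 was 0, the peak over Zic5 had 0.61 for the Hoxa deletion (edgeR adjusted p = 2.98e-04) and -0.68 for the Wnt6 deletion (edgeR adjusted p = 0.596), and the peak beside Zic1 lost its call.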
